A study of Sus scrofa with 6 samples.

Results

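The RAB genes encode small GTPases that direct membrane traffic, and 52 genes with a symbol starting RAB were measured in pools of pig oocytes taken before or after in vitro maturation. Members were all probes whose platform annotation gives a single gene symbol starting RAB, 53 probes among the 12258 in the deposited table. RAB1B, RAB4A, RAB5A, RAB5B, RAB7A and RAB18, among others, had no such probe, so the groups by role given below are incomplete. RABGAP1L had 2 probes, of which the brighter stood for the gene. The members were 40 GTPase genes and 12 genes of RAB-named regulators and effectors, out of 9828 named genes. The label holds only in part, since those 12 are no small GTPases.

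Total RNA from 6 pools of 50 oocytes of pubertal crossbred Landrace gilts was hybridised to Affymetrix arrays. The 3 pools after maturation came from cumulus-oocyte complexes, oocytes still enclosed in their somatic cumulus cells. These were cultured for 44 h at 38 °C under 5% CO2 in TCM-199 medium with follicular fluid, hCG and eCG. The 3 pools before maturation are titled in vivo oocytes. The design text mentions a BCB dye test, which no sample label assigns, and the sources used here do not say whether cumulus cells were removed before RNA extraction.

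A Rab protein cycles between a GTP-bound form on a membrane, where it recruits effectors, and a GDP-bound form that can be drawn off into the cytosol. Exchange factors load GTP, GTPase-activating proteins speed its hydrolysis, and a geranylgeranyl transferase attaches the lipids that hold Rab proteins on membranes. Each Rab marks particular compartments, such as the Golgi apparatus, early endosomes or secretory granules. In oocytes, membrane traffic of this kind underlies the movement and release of cortical granules.

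Values are deposited log2 signals, and a difference is the mean after minus the mean before maturation with the standard error (SE) of the limma fit. A gene was called when its limma p-value, adjusted by the Benjamini-Hochberg method over all probes, was under 0.05. Over all probes 3.21% were called higher and 8.07% lower, the shares to set beside the counts below. Array medians ran from 5.62 to 5.70. Lower quartiles ran from 4.27 to 4.30 before and from 4.33 to 4.45 after maturation. Oocyte markers had a median signal at percentile 99.4 of all probes, and 2 of 12 measured were called lower. Of 13 measured cumulus and granulosa markers 7 were called lower and 3 higher. The log2 of their summed linear signal was 10.84 to 11.01 after and 12.50 to 12.93 before maturation. GJA1, the connexin 43 gap junction gene of cumulus cells, went from 10.91 to 8.64, while HSD3B1, of progesterone synthesis, differed by 3.95 and the hyaluronan synthase gene SHAS2 by 1.72 in the other direction. In pools, fewer cells of a type and less RNA per cell cannot be told apart. Any part of the cumulus markers' shift in the results that follow was not tested. Of the other markers measured, 2 of 10 for theca and stroma were called higher and 1 lower, and 1 of 6 for leukocyte and erythroid cells was called higher. Of 6 endothelial markers 0 were called by limma, and 2 had an unadjusted p under 0.05 with a positive difference, beside 15.8% of all probes. With the replicate number as a block the markers SOX17, DCN and CD14 were called higher as well (adjusted p = 0.0369, 0.044 and 0.047). That fit called 5.07% of all probes higher and 10.0% lower.

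RAB genes differed little between the groups. Of the 52 members RAB13 rose, RAB27B, RAB6A and RABGGTB fell, and 48 did not pass the limma test. That is 1.92% called higher and 5.77% lower, beside 3.21% and 8.07% of all probes, so the members' shares lay near the background. At an unadjusted limma p under 0.05 there were 11 members with a positive and 3 with a negative difference, out of 52, where all probes gave 15.8% and 13.4%. No member differed by 2-fold (0 of 52), whereas 3.66% of all probes did. The median difference of the members was 0.09 on the log2 scale and that of all probes 0.08. The median size of the difference, without its sign, was 0.16 for the members and 0.17 for all probes. Differences were positive for 39 of the 52, or 75%, against 65.4% of probes. The 3 arrays after maturation lay above all 3 before it for 15 members (28.8%, background 21.7%) and below them for 5 (9.62%, background 14.4%). Groups thus did not overlap for 20 of 52, where the background in either direction is 36.1%. For all 48 members not called, the 95% limma interval of the difference lay within 1 of 0, and for 34 of them within 0.5.

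**Figure D1:**
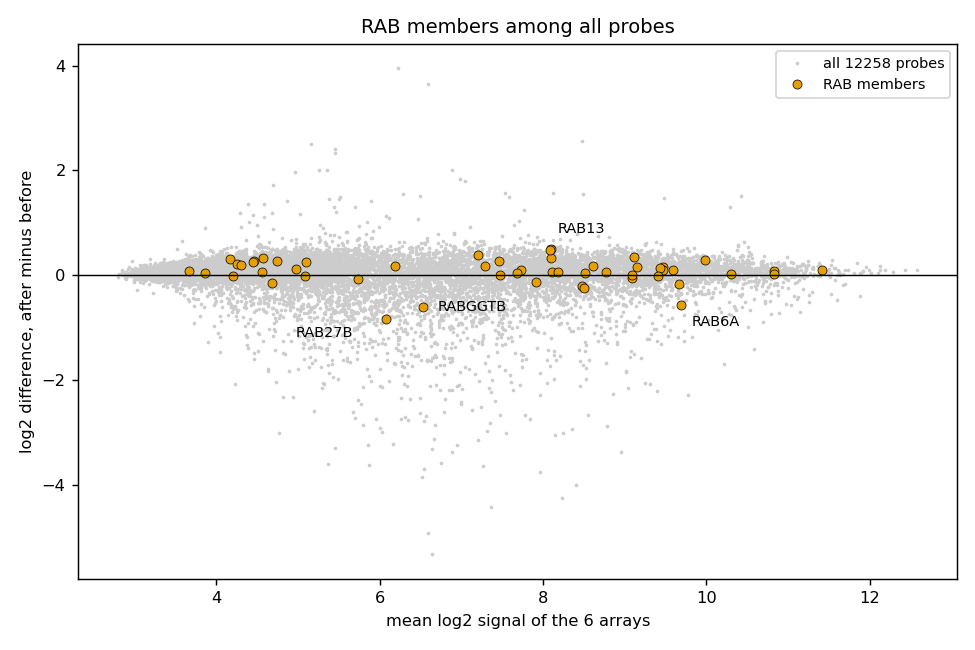
Each grey point is 1 of 12258 probes, with its mean log2 signal over the 6 arrays on the x axis and its log2 difference, after minus before maturation, on the y axis. The 52 RAB members (orange) run from -0.83 to 0.51 while other probes spread much farther, and the 4 called members are named.

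The scale of the arrays sets the sign of small differences, and also of those of the called genes RAB6A and RABGGTB. With ribosomal protein genes held level, a scaling that adds a constant to every probe, the median of all probes moved from 0.08 to 0.836. It then gave 49 RAB members called higher and 0 lower, beside 87.4% and 2.5% of all probes. Relative to all probes the members stayed near the middle, at 0.848 against 0.836. With each array at a common median 2 members were called higher and 2 lower, beside 7.46% and 7.27% of all probes. Signs given hereafter are those of the deposited scale.

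**Figure D2:**
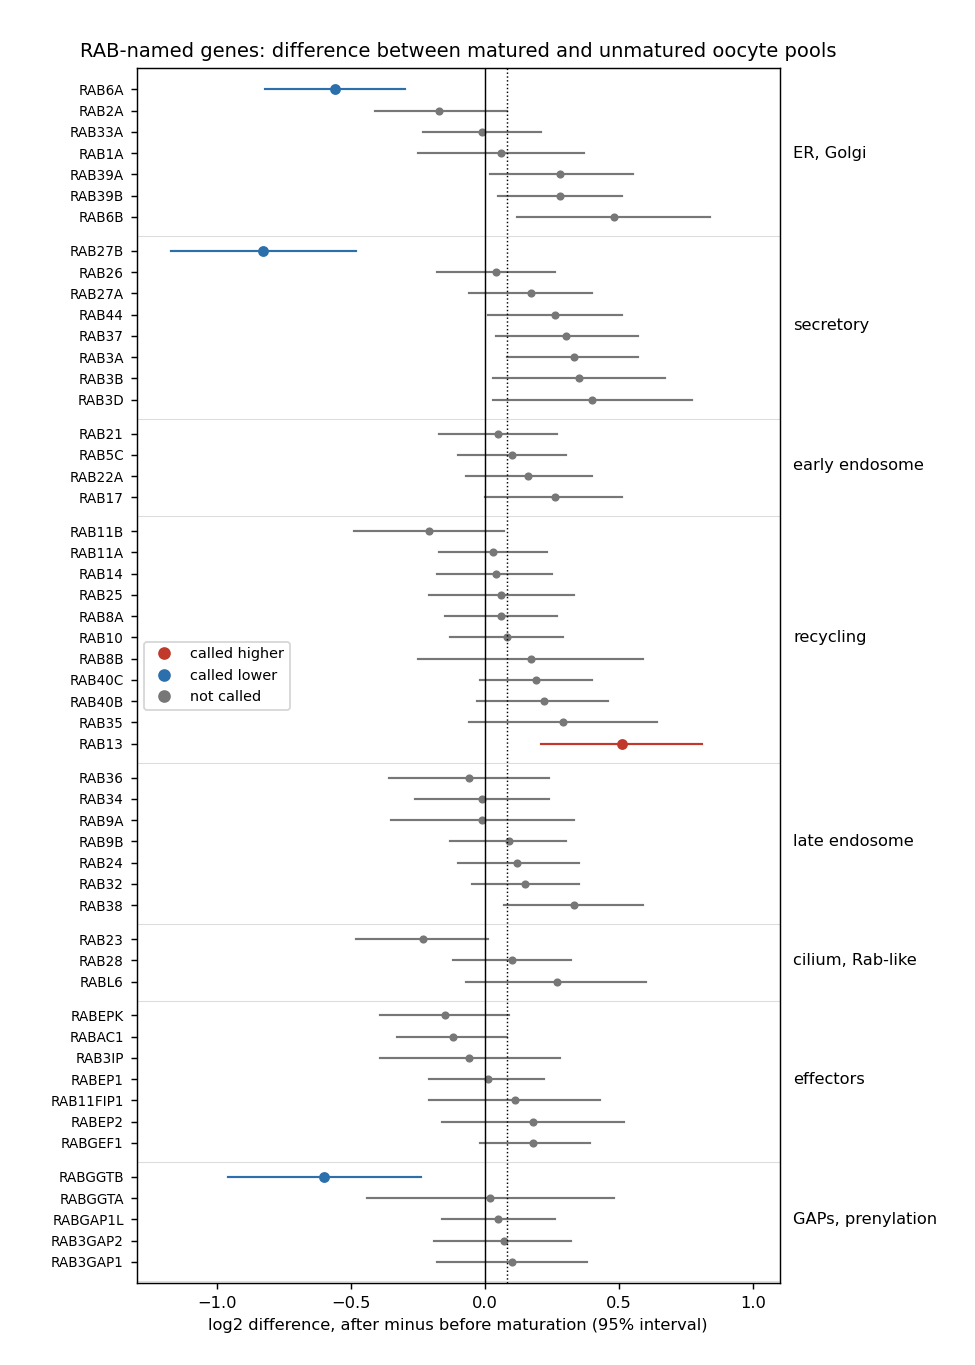
Points are log2 differences, after minus before maturation, of the 52 members with 95% limma intervals, grouped by role, and the dotted line marks the median of all probes at 0.08. RAB27B, RAB6A and RABGGTB lie to the left of 0, RAB13 to the right, and most other intervals include 0.

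Among GTPase genes of the endoplasmic reticulum and Golgi apparatus, RAB6A fell and 6 of 7 did not pass the test. At an unadjusted p under 0.05 there were 3 positive and 1 negative of the 7, beside 15.8% and 13.4% of all probes. RAB6A, a Rab of traffic within and out of the Golgi apparatus, had log2 signals of 10.11, 9.88 and 9.92 before maturation and 9.58, 9.30 and 9.36 after it. The groups did not overlap, and the lowest array before lay above the highest after. Its mean went from 9.97 ± 0.12 to 9.41 ± 0.15 (SD, n = 3), a difference of -0.56 (SE 0.11, limma adjusted p = 0.0165) or 1.47-fold lower. With ribosomal protein genes held level this value turned to 0.20 and was not called (adjusted p = 0.369). The call also ended without replicate 2 or 3 after maturation (adjusted p = 0.0693 and 0.0582).

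Its paralog RAB6B, a form known best from neurons, pointed the other way without passing the test. Signals were 7.85, 8.13 and 7.55 before and 8.33, 8.16 and 8.48 after maturation. All 3 arrays after maturation were higher, by a narrow margin against replicate 2 before it. The difference was 0.48 (SE 0.16, 95% interval 0.12 to 0.84, limma adjusted p = 0.0872). Without replicate 2 before maturation it was 0.62 and called (adjusted p = 0.0405). RAB2A, which acts in traffic between the endoplasmic reticulum and Golgi apparatus, was bright on every array. Its signals were 9.67, 9.68 and 9.89 before and 9.62, 9.45 and 9.67 after maturation. The gap between the groups was almost nil and the difference of -0.17 did not pass (adjusted p = 0.322). RAB39A and RAB39B had differences of 0.28 each and were dim, at percentiles 33.8 and 27.5 of all probes. Both are among the 3 positive genes of this group with an unadjusted p under 0.05. RAB1A, a Rab of early secretory transport, and RAB33A had 0.06 and -0.01.

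Genes of secretory vesicles and granules showed the widest range of the role groups, from -0.83 to 0.40. Of 8 measured, RAB27B fell and 7 did not pass, and the group's median was 0.28 against 0.08 for all probes. At an unadjusted p under 0.05 there were 5 positive and 1 negative of the 8, beside 15.8% and 13.4% of all probes. RAB27B encodes a Rab that docks secretory granules and exosome-bearing endosomes at the plasma membrane. Its log2 signals were 6.55, 6.33 and 6.59 before and 5.50, 5.49 and 5.99 after maturation. The groups did not overlap, although replicate 3 after maturation lay well above the other two. The mean went from 6.49 ± 0.14 to 5.66 ± 0.28 (SD, n = 3), a difference of -0.83 (SE 0.15, limma adjusted p = 0.0108) or 1.77-fold lower, the largest among the 52. The call ended without replicate 1 or 2 after maturation (adjusted p = 0.0575 and 0.0546). It also ended on the scale that fixes ribosomal protein genes (-0.07, adjusted p = 0.747).

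RAB27A, which has a related role at secretory granules and melanosomes, did not fall with it. Signals were 8.95, 9.09 and 9.16 before and 9.12, 9.32 and 9.27 after maturation, and the groups overlapped. The difference was 0.17 (SE 0.10, 95% interval -0.06 to 0.40, limma adjusted p = 0.295).

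RAB3 genes encode Rabs of regulated exocytosis, and the 3 measured had positive differences that did not pass the test. RAB3A signals were 7.94, 8.01 and 7.83 before and 8.43, 8.17 and 8.18 after maturation, with no overlap. Its difference was 0.33 (95% interval 0.08 to 0.57, limma adjusted p = 0.0872), and it was called with a common median per array (0.38, adjusted p = 0.0477). RAB3B signals were 9.14, 8.98 and 8.68 before and 9.18, 9.20 and 9.48 after maturation, again without overlap but with replicate 1 almost level. Its difference was 0.35 (95% interval 0.03 to 0.67, adjusted p = 0.145). RAB3D signals were 7.36, 6.91 and 6.75 before and 7.57, 7.34 and 7.31 after maturation. Replicate 1 before maturation reached into the range after it. The difference of 0.40 did not pass (adjusted p = 0.149), but it passed with the replicate number as a block (adjusted p = 0.0474). That block raised the count of members called higher from 1 to 2, and the share of all probes called higher from 3.21% to 5.07%. RAB3D also passed without replicate 1 before maturation (0.57, adjusted p = 0.0243). The rest of the group (RAB26, RAB37 and RAB44) had differences of 0.04 to 0.30, with RAB26 under the lower quartile of every array. RAB37 and RAB44 were also dim, at percentiles 20.9 and 27.1 of all probes. Both are among the 5 positive genes with an unadjusted p under 0.05, and RAB37 had 0.20 with cyclic loess.

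**Figure D3:**
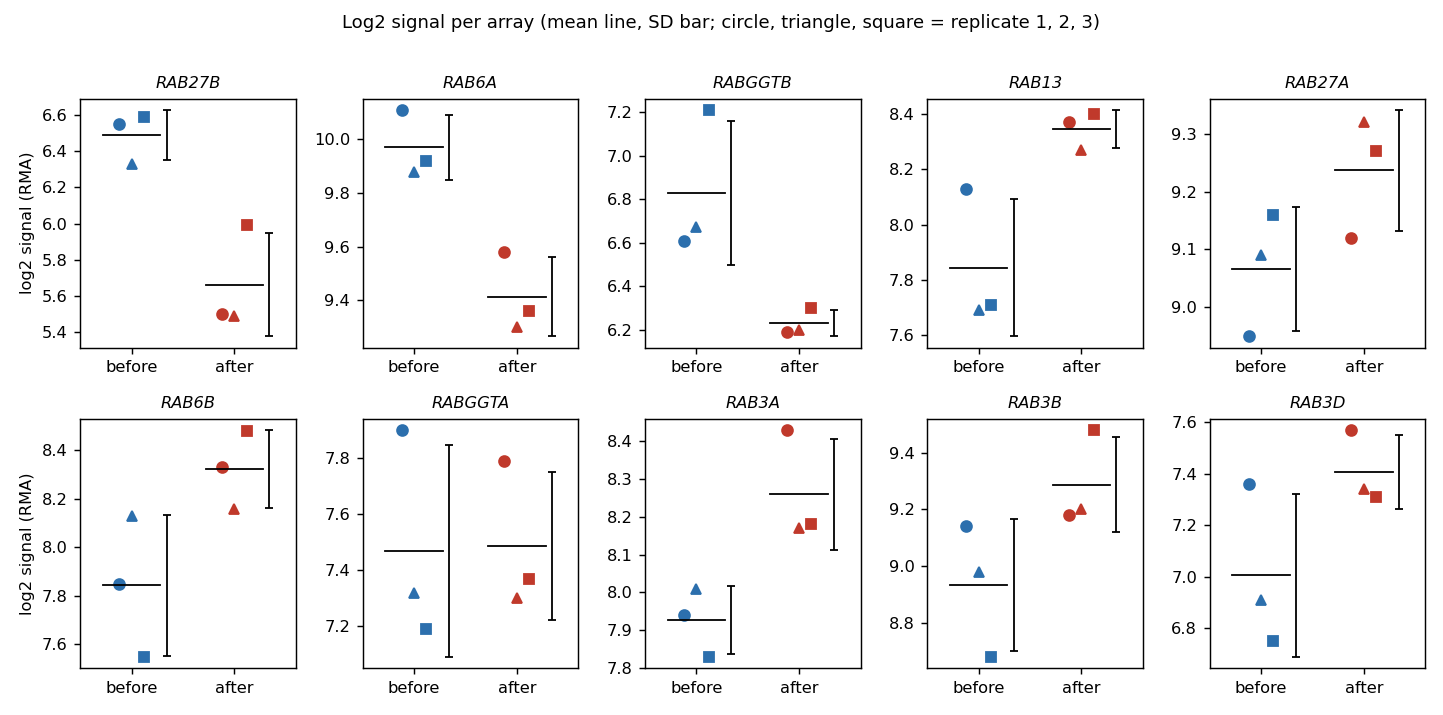
Log2 signal per array of the 4 called members, of RAB27A and RAB6B, paralogs of called members, of the partner subunit gene RABGGTA, and of the 3 RAB3 genes, before (blue) and after (red) maturation, with group means as lines and SD bars (n = 3). Each panel has its own y axis, and groups do not overlap in the panels of RAB27B, RAB6A, RABGGTB, RAB13, RAB6B, RAB3A and RAB3B.

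Early endosome Rabs had the narrowest range of differences of the role groups. Of 4 measured 0 were called by limma. RAB17, 1 of the 4, had an unadjusted p under 0.05 and a positive difference, beside 15.8% of all probes. Differences ran from 0.05 to 0.26, all positive. RAB5C, a Rab of early endosome fusion and the brightest member, lay at percentile 99.6 of all probes. Its log2 signals were 11.40, 11.39 and 11.32 before and 11.43, 11.54 and 11.44 after maturation. The arrays were nearly level, with those after maturation just above. The difference of 0.10 had a 95% interval of -0.10 to 0.30 (adjusted p = 0.478), and whether so bright a probe was saturated is not known. The 4 genes were also not called with cyclic loess, quantile or common median scaling. With ribosomal protein genes held level all 4 were called higher, at 0.80 (RAB21) to 1.01 (RAB17).

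RAB13, which encodes a Rab of tight junction and polarised transport, was the member that rose, and the other 10 of 11 recycling genes did not pass. Its log2 signals were 8.13, 7.69 and 7.71 before and 8.37, 8.27 and 8.40 after maturation. All arrays after maturation lay above those before it, and replicate 1 before maturation lay nearest to them. The mean went from 7.84 ± 0.25 to 8.35 ± 0.07 (SD, n = 3), a difference of 0.51 (SE 0.13, limma adjusted p = 0.0441) or 1.42-fold higher. The difference stayed positive and called under each of the 4 other scalings, at 0.48 to 1.26. The call ended without any 1 of the arrays after maturation (adjusted p = 0.136, 0.0999 and 0.112 for replicates 1, 2 and 3). It ended likewise without replicate 2 or 3 before maturation (adjusted p = 0.117 and 0.112).

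RAB11A and RAB11B encode Rabs of the recycling endosome. RAB11A signals were 10.74, 10.86 and 10.84 before and 10.89, 10.80 and 10.84 after maturation. The groups overlapped, and the interval of the difference ran from -0.17 to 0.23 (adjusted p = 0.852). RAB11B signals were 8.79, 8.44 and 8.54 before and 8.54, 8.29 and 8.30 after maturation. Its groups met at 8.54, and the difference of -0.21 did not pass (95% interval -0.49 to 0.07, adjusted p = 0.286), but it was called at 0.54 with ribosomal protein genes held level. RAB8A, RAB8B, RAB10 and RAB14, which act in transport to the plasma membrane or between Golgi apparatus and endosomes, had differences of 0.06, 0.17, 0.08 and 0.04. RAB10 and RAB11A both lay at percentile 98.5 of all probes. RAB35 had a difference of 0.29 with overlapping groups, RAB25 0.06, and RAB40B and RAB40C 0.22 and 0.19.

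Of 7 GTPase genes of late endosomes, lysosomes and related organelles 0 were called by limma. RAB38, 1 of the 7, had an unadjusted p under 0.05 and a positive difference, beside 15.8% of all probes. Differences ran from -0.06 to 0.33. RAB9A, a Rab of transport from late endosomes to the trans-Golgi network, had log2 signals of 9.71, 9.41 and 9.11 before and 9.34, 9.44 and 9.43 after maturation. The arrays before maturation spread to both sides of those after it, and the difference was -0.01 (95% interval -0.35 to 0.33). RAB9B was the dimmest member, at percentile 9.9, with means of 3.63 before and 3.71 after maturation under the lower quartile of every array. Its difference was 0.09, and detection was not assessed. RAB32 and RAB38, Rabs of melanosomes and other lysosome-related organelles, had differences of 0.15 and 0.33. Their arrays after maturation lay above those before it, which makes 2 of 7 (28.6%) beside 21.7% of all probes. RAB38 was dim, at percentile 29.9 of all probes.

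Of 3 genes of cilia and Rab-like proteins 0 were called by limma, also at an unadjusted p under 0.05. RAB23, a negative regulator of Hedgehog signalling, had log2 signals of 8.46, 8.66 and 8.74 before and 8.28, 8.39 and 8.49 after maturation. The groups overlapped only through replicate 3 after maturation and replicate 1 before it. The difference was -0.23 (95% interval -0.48 to 0.01, adjusted p = 0.195), the largest negative value among members not called. It became 0.52 and called with ribosomal protein genes held level. RAB28 and RABL6 had differences of 0.10 and 0.27.

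RABGGTB, which encodes the beta subunit of the geranylgeranyl transferase of Rab proteins, fell. Signals were 6.61, 6.67 and 7.21 before and 6.19, 6.20 and 6.30 after maturation. The groups did not overlap, and replicate 3 before maturation lay far above the other two. The mean went from 6.83 ± 0.33 to 6.23 ± 0.06 (SD, n = 3), a difference of -0.60 (SE 0.16, limma adjusted p = 0.0449) or 1.52-fold lower. Its call ended under more scalings than those of the other 3 genes, namely with a common median (adjusted p = 0.0552), a second quantile normalization (-0.45, adjusted p = 0.107), cyclic loess (adjusted p = 0.0600) and ribosomal protein genes held level, where the value turned to 0.15. It also ended without replicate 1, 2 or 3 after maturation or replicate 2 before it (adjusted p = 0.140, 0.135, 0.0881 and 0.0579).

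RABGGTA, the alpha subunit gene of the same enzyme, had signals of 7.90, 7.32 and 7.19 before and 7.79, 7.30 and 7.37 after maturation. In both groups replicate 1 was the highest array, and the difference was 0.02 (95% interval -0.44 to 0.48, adjusted p = 0.960). RAB3GAP1 and RAB3GAP2, subunits of a GTPase-activating complex, had differences of 0.10 and 0.07, and RABGAP1L, a GTPase-activating gene, had 0.05. The second RABGAP1L probe lay at percentile 9.3 and gave -0.02, also not called.

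Of 7 RAB-named effector and adaptor genes 0 were called by limma, also at an unadjusted p under 0.05, and their median was 0.01. RABEP1 and RABEP2, whose products bind RAB5 on early endosomes, had differences of 0.01 and 0.18. RABGEF1, an exchange factor gene for RAB5, had 0.18, and its arrays after maturation lay above those before it. RABAC1, a gene of a Golgi protein that binds prenylated Rabs, had -0.12, and its arrays after maturation lay below. RAB11FIP1, RAB3IP and RABEPK had 0.11, -0.06 and -0.15.

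Related genes were compared in pairs through their log2 ratio within each array, which a shift of a whole array does not move. Of 20 listed pairs 11 had both genes measured. RABGGTA with RABGGTB and RAB3GAP1 with RAB3GAP2 are subunits of 1 complex each and no paralogs, and the others are paralogs. The ratio did not overlap between groups for 2 of the 11. The share of such ratios over other gene pairs was not computed, and of single probes 36.1% did not overlap. Each of the 2 pairs holds a member called above (RAB6A or RAB27B), so its ratio is no separate support for that call. The RAB6A to RAB6B log2 ratio was 2.26, 1.75 and 2.38 before and 1.25, 1.14 and 0.88 after maturation. Every array after maturation had a lower ratio, with a change of -1.04 (SE 0.22). The RAB27A to RAB27B log2 ratio was 2.40, 2.76 and 2.57 before and 3.62, 3.83 and 3.28 after maturation. Every array after maturation had a higher ratio, with a change of 0.996 (SE 0.19). The two-sided exact permutation p was 0.10 for both, the smallest that 3 arrays against 3 can give (adjusted over 11 pairs, p = 0.55). Leaving out each array gave changes of -1.23 to -0.917 for RAB6 and of 0.869 to 1.144 for RAB27. A second quantile normalization gave -1.117 and 0.898, and cyclic loess gave -1.067 and 0.986. Scalings that shift whole arrays leave a ratio unchanged by construction and do not test it. A ratio shows unequal change of its genes, and not which of them changed.

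The other 9 pairs overlapped between groups. The largest of their changes was that of RABGGTA to RABGGTB, 0.62 (SE 0.41, exact permutation p = 0.30), where the ratio before maturation spread from -0.02 to 1.28. RAB11A to RAB11B changed by 0.24 (SE 0.15, exact permutation p = 0.20). RAB3A to RAB3B, RAB39A to RAB39B, RAB40B to RAB40C and RAB3GAP1 to RAB3GAP2 lay between -0.02 and 0.03. RABEP1 to RABEP2, RAB8A to RAB8B and RAB9A to RAB9B had -0.17, -0.11 and -0.10.

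**Figure D4:**
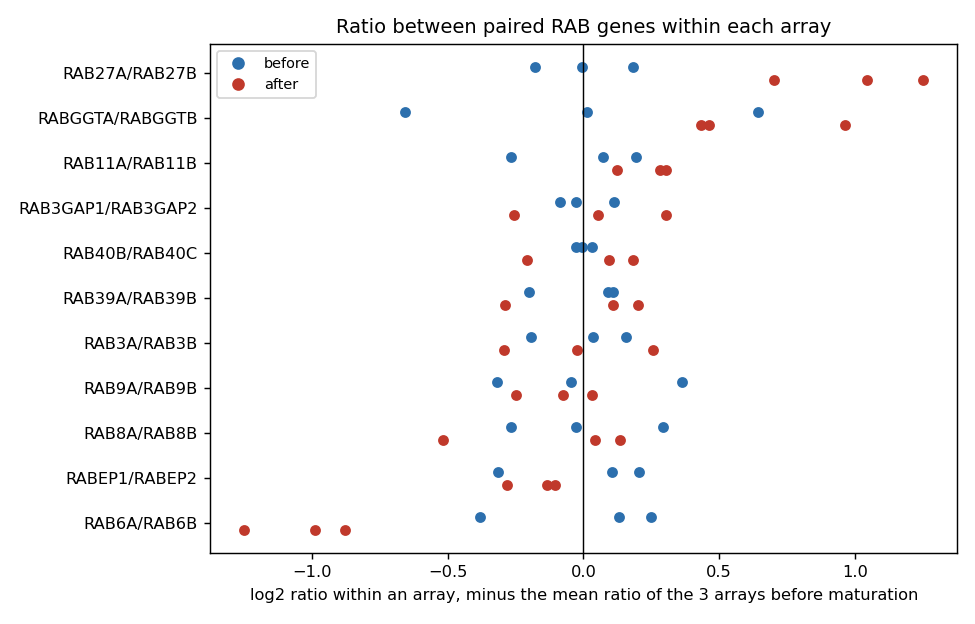
Log2 ratio of paired genes (paralogs, or subunits for RABGGTA/RABGGTB and RAB3GAP1/RAB3GAP2) within each array, shown relative to the mean ratio of the 3 arrays before maturation, before (blue) and after (red) maturation. The red points lie apart from the blue ones for RAB6A/RAB6B, with a change of -1.04, and for RAB27A/RAB27B, with 0.996, and overlap them for the other 9 pairs.

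From a list of 114 genes of the Rab cycle not named RAB, chosen with earlier results of these data known, 71 genes were measured. Of these 3 rose and 4 fell, 4.23% and 5.63%, beside 3.21% and 8.07% of all probes. Their median difference was 0.11. With each array at a common median 5 were called higher and 3 lower, beside 7.46% and 7.27% of all probes. A second quantile normalization gave 4 and 3, beside 4.86% and 7.06%, and ribosomal protein genes held level gave 64 and 0, beside 87.4% and 2.5%. With the replicate block 4 were called higher and 6 lower, beside 5.07% and 10.0% of all probes. The additions were MON1B (0.44, adjusted p = 0.0392), MYO5A (-0.42, adjusted p = 0.0359) and GCC2 (-0.46, adjusted p = 0.0418). Of 21 TBC-domain genes, whose products activate the GTPase of Rab proteins, 2 were called higher and 2 lower. That is 9.52% in each direction, beside 3.21% and 8.07% of all probes.

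TBC1D4, also known as AS160, a substrate of AKT that restrains Rab-driven transport of glucose transporter vesicles, had the largest difference of the list. Its log2 signals were 6.55, 6.46 and 6.93 before and 7.66, 7.45 and 7.62 after maturation. The groups lay well apart, and the difference was 0.93 (SE 0.14, limma adjusted p = 0.00375) or 1.91-fold higher, called without any 1 of the 6 arrays. TBC1D10B rose by 0.44 (adjusted p = 0.0482). TBC1D8B fell by 0.73 and TBC1D9B fell by 0.57 (adjusted p = 0.0493 and 0.0298), and with ribosomal protein genes held level these turned to 0.03 and 0.19.

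Among effector genes 1 of 24 rose and 1 fell. KIF16B encodes a kinesin that moves early endosomes. Its log2 signals were 8.36, 8.49 and 8.72 before and 7.80, 7.59 and 7.68 after maturation. The groups lay well apart, and the difference was -0.84 (SE 0.12, limma adjusted p = 0.00324) or 1.78-fold lower, called without any 1 array but not with ribosomal protein genes held level (-0.08). PLEKHM1, an effector gene of RAB7 at late endosomes and lysosomes, rose by 0.51 (adjusted p = 0.0259). Of 23 exchange factor genes GAPVD1, an exchange factor gene for RAB5, fell by 0.50 (adjusted p = 0.0345), and this turned to 0.26 with ribosomal protein genes held level. TBC1D10B, TBC1D8B, TBC1D9B and PLEKHM1 kept the call in 1 of 6 fits that left out an array, and GAPVD1 in 2. The genes that draw off or escort Rab proteins (GDI2, CHM and CHML) had differences of 0.12, 0.27 and -0.08. Of these 3, 0 were called by limma and 1 had an unadjusted p under 0.05 with a positive difference, beside 15.8% of all probes.

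**Figure D5:**
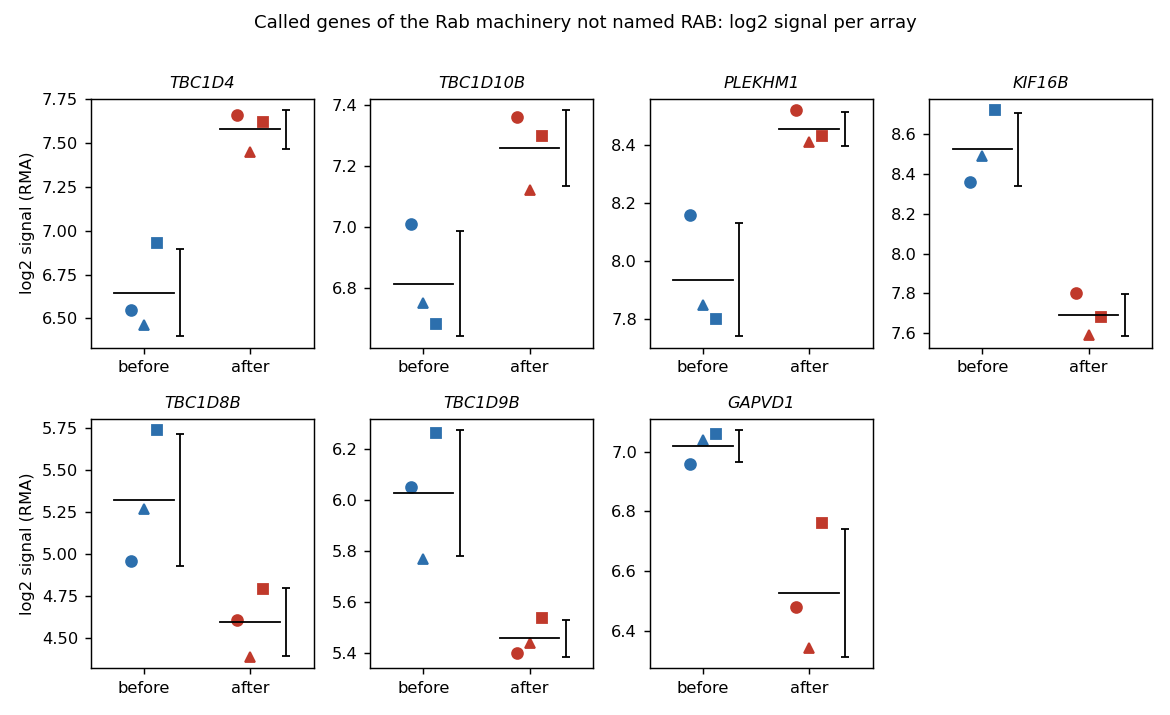
Log2 signal per array of the 7 called genes of the Rab machinery not named RAB, before (blue) and after (red) maturation, with group means as lines and SD bars (n = 3). Each panel has its own y axis, and the groups are farthest apart for TBC1D4 (0.93) and KIF16B (-0.84).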

How the data were processed

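The deposited table holds 1 column of log2 expression values per array, made by the authors with RMA per the submitters' processing notes. The sources used here give neither the RMA version nor its options or a probe filter, and log2 was inferred from RMA and the values' range. Per the labels' protocols, 100 ng of total RNA per pool was amplified in 2 rounds. Probes were named from the platform annotation, with 10922 of 12258 having 1 symbol (a symbol listed more than once counted as 1), 268 several and 1068 none listed. Of the 52 members, 49 gene identifiers were found in the RefSeq table of Sscrofa11.1, and 0 symbols changed. A probe listed for both LGALS12 and RAB11A was left out.

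The two-sided test was limma's (version 3.58.1, R 4.3.3), lmFit then eBayes over all probes, and it was tested on simulated data. Tables and figures used Python 3.11.15, pandas 2.3.3, scipy 1.17.1 and matplotlib 3.10.9. Deviations from the group mean correlated weakly between arrays of the same number (r = 0.283, 0.12 and 0.142). Between arrays of unlike numbers r ran from -0.168 to 0.0191. Deviations sum to 0 within a group, so these values are not independent and do not establish a pairing. Pairing by number is thus a criterion on the data, since the labels call the arrays only biological replicates. The main fit did not use this pairing. With the replicate block the 4 called members kept their limma call (adjusted p = 0.00332 for RAB27B, 0.00758 for RAB6A, 0.0185 for RABGGTB and 0.0277 for RAB13). The p-values measure the spread between these pools. Named with values were all called members, the 3 largest positive and negative differences not called, both genes of each pair, the brightest and dimmest member and each called gene of the Rab machinery. Most others were named with their difference, and the rest fall within the ranges given by role group. Members and lists were chosen with earlier results of these data known. Alternatives were the replicate block, 4 scalings, a filter on dim probes, trend and robust variances, the dimmer probe and leaving out each array.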

Additional observations from a re-analysis of the deposited data

How the results depend on the processing

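The number of arrays limits the precision, and signal over background was not assessed. RAB members called higher numbered 1, and 2 with the replicate block, 2 with a common median and 49 with ribosomal protein genes held level. Those called lower numbered 3, and 0 with ribosomal protein genes held level. The members' median of 0.092 became 0.148 with a common median, 0.033 with cyclic loess and 0.848 with ribosomal protein genes held level. Other Rab machinery genes called higher numbered 3, and 5 with a common median and 64 with ribosomal protein genes held level. Those called lower numbered 4, and 0 under that last scaling. Leaving out 1 array gave 0 to 2 RAB members higher, 0 to 3 lower and medians of 0.087 to 0.112. It gave 1 to 6 machinery genes higher, 1 to 3 lower, and 2 to 4 pairs whose ratio did not overlap. Fewer arrays enter those fits.

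With ribosomal protein genes held level, which adds a constant by construction, signs turned for RAB6A (0.20), RABGGTB (0.15), GAPVD1 (0.26), TBC1D8B (0.03) and TBC1D9B (0.19), not called. They turned and were called for RAB11B (0.54), RAB23 (0.52), RAB2A (0.59), RAB33A (0.75), RAB34 (0.75), RAB36 (0.70), RAB3IP (0.70), RAB9A (0.75), RABAC1 (0.63) and RABEPK (0.61). The replicate block changed the call of 1 member, RAB3D, and gave 4 machinery genes higher and 6 lower. It called 5.07% of all probes higher and 10.0% lower, against 3.21% and 8.07% without the block. Without the dimmest 25% of probes 46 members were tested, and the same 4 were called, as with trend and robust set. The fits of pair ratios under other scalings were chosen after seeing the data.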
